A study of Mus musculus with 16 samples.

Results

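The 26S proteasome, the particle that degrades ubiquitin-tagged proteins, was followed across mouse forebrain RNA, embryonic tissue and single embryonic cells. The members were the gene spots whose current symbol is Psma, Psmb, Psmc, Psmd, Psme, Psmf or Psmg followed by a number. They came to 52 probes for 47 genes, of 24107 gene probes on the array. The symbol is written in the files or the platform table for 47 of these probes, and the other 5 stand there under retired names that were updated through their RefSeq accessions: Psmg1, Psmg2, both probes of Psmg3, and Psmb11. Psma1, Psmb1, Psmd11, Psme4 and Psmg3 have a pair of probes each, called probe A and probe B here.

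The 16 single-colour spotted oligonucleotide arrays fall into 5 groups. The single-cell group is 4 individual cells of the caudal ganglionic eminence (CGE in the labels) of OF1 mouse embryos at E14, each processed in a microfluidic rotary mixer with 25 min of reverse transcription and 40 PCR cycles; no animal is named for a cell. The microfluidic group (n = 3) started from 10 pg of total RNA of adult female B6.C3Sn forebrain, reverse-transcribed for 20 min in the 7 nL mixer and amplified over 40 cycles. The conventional group (n = 3) took 10 pg of the same kind of RNA through the reaction in a 10 µL tube, with the same time and number of cycles. The explant group (n = 3) was 5 µg of unamplified RNA of OF1 embryos at E14, which the sample labels call CGE and the extraction notes call telencephalon. The control group (n = 3) was 15 µg of unamplified adult female B6.C3Sn forebrain RNA; the notes speak of a single wild-type forebrain and name no separate animals or pools, so the p-values measure the spread between arrays, which may be technical. Explant and control differ together in strain, age, labelling chemistry, slide series and scan session, and each scan session holds 1 group (the cells span a pair of sessions), so these cannot be told apart from tissue.

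The proteasome has a barrel-shaped core particle, made of rings of alpha subunits (Psma genes) that gate the entrance and rings of beta subunits (Psmb genes) that line the chamber. Psmb5, Psmb6 and Psmb7 encode the catalytic beta subunits, and Psmb8, Psmb9 and Psmb10 encode the inducible subunits that take their places in the immunoproteasome of immune cells and of cells exposed to interferon. The regulatory particle that caps the core has a ring of ATPases (Psmc genes), which unfold the substrate, and non-ATPase subunits (Psmd genes), which recognise and strip off ubiquitin. Other caps are the activators encoded by Psme genes; Psmf1 encodes an inhibitor, and Psmg genes and some Psmd genes encode assembly chaperones. Neurons depend on this machinery for protein turnover at synapses and in axons. By role, the 52 probes were 9 of the alpha ring, 8 of the beta ring, 4 of inducible or thymic beta subunits, 6 of ATPases, 12 of non-ATPase subunits, 3 of base chaperones, 5 of activators, 1 of the inhibitor and 4 of core chaperones.

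A probe was taken as above background when its foreground median lay more than 2 background SD over the local background median. Values per array are the red-channel (Cy5) foreground median minus the local background, in scanner units, called net intensity below, and a spot at the detector's ceiling is called saturated. Where a group was not above background or was saturated on all its arrays, a fold is a bound, taken against the lowest signal that counted as detected on each array or against the saturated value. Proteasome probes were above background on 41.2% to 56.0% of readable spots in the 4 single cells, 39.1% to 62.5% in the microfluidic arrays, 3.85% to 5.88% in the conventional arrays, 56.0% to 77.1% in the explant arrays and 92.2% to 94.1% in the control arrays. All gene probes gave 26.5% to 52.5% in the cells, 37.8% to 54.0% in the microfluidic arrays, 3.25% to 5.75% in the conventional arrays, 14.8% to 29.0% in the explant arrays and 64.7% to 69.3% in the control arrays. On every single-cell, microfluidic, explant and control array the proteasome share was above the share over all gene probes. Among these arrays the gap was smallest on microfluidic array 2, at 39.1% against 37.8%. On conventional arrays both shares were low, and on conventional array 1 the proteasome share was the lower one (3.85% against 4.46%). Conventional array 1 carries no background SD, which was filled in from conventional arrays 2 and 3.

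**Figure D1:**
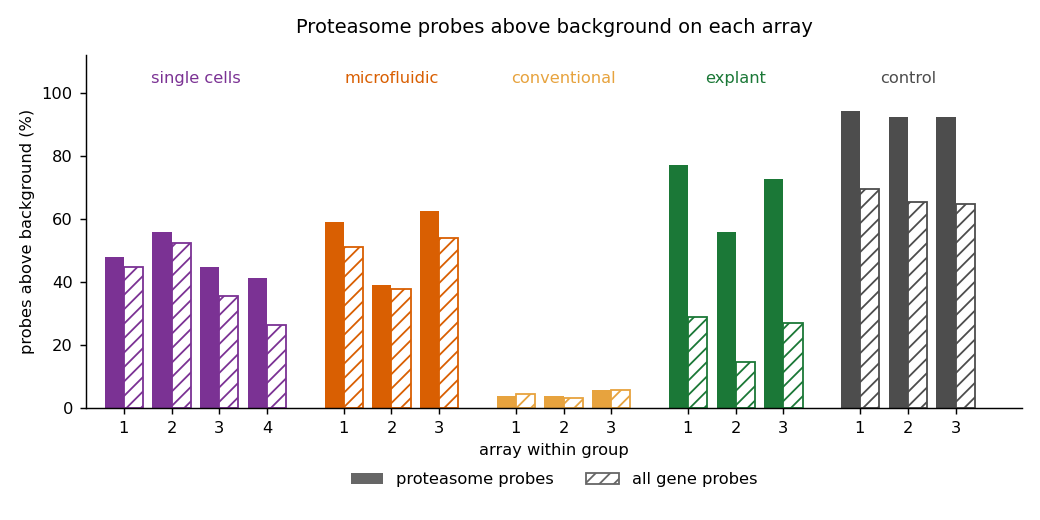
Share of probes above background (%, vertical axis) on each of the 16 arrays, filled bars for the 52 proteasome probes and hatched bars for all gene probes. The filled bars stand far above the hatched ones in the explant arrays (77.1% against 29.0% on array 1) and in the control arrays, and both are under 6% in the conventional arrays. The filled bars are also the taller ones on every single-cell and microfluidic array, if only slightly on microfluidic array 2 (39.1% against 37.8%).

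Marker genes bear on what the samples are. Young-neuron probes (5 probes for Dcx, Sox11, Tubb3 and Stmn2) were above background in 3 to 5 of 5 in the cells. The explant, microfluidic and control arrays each had 4 to 5 of 5. Of the 4 tested, 4 were higher in explant than in control, and 2 of 4 were higher in microfluidic than in control. In the cells, 2 to 5 of 7 ganglionic eminence probes and 1 to 4 of 6 mature-neuron probes were above background. For oligodendrocyte probes it was 0 to 2 of 3, for astrocyte probes 0 to 2 of 4 and for neural progenitor probes 0 to 2 of 6. Red-cell probes gave 0 to 3 of 4 in the cells. Endothelium probes gave 0 to 3 of 5, with a summed net intensity of 4016 to 86652. Of the 7 ganglionic eminence probes, 6 were above background on every explant array and 6 on every control array; 4 were higher in explant and 2 lower, and Dlx5 was at least 19.2-fold higher in explant than in control. Mature-neuron probes were lower in explant for 5 of 6, oligodendrocyte probes for 3 of 3 and astrocyte probes for 4 of 4. Red-cell probes were higher in explant for 3 of 4, with a summed net intensity of 45384.5 to 57441.5 against 9503.5 to 38341.5 in control, while Alas2 was above background on no explant array; the part of these lists in the results below was not tested.

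The first comparison set embryonic tissue against adult forebrain, both without amplification. After normalization across arrays, 21 of the 45 tested proteasome probes were higher in explant and 2 were lower. Over all 13828 tested gene probes, 42.0% were called, 15.2% higher and 26.8% lower. The median log2 difference was 0.78 over the proteasome probes and -0.30 over all tested probes. The core particle held 11 higher and 1 lower of 15, and the regulatory particle 8 higher and 0 lower of 18. The median normalized level of the core probes was 13.07 ± 0.18 in explant and 11.23 ± 0.08 in control, and that of the regulatory probes 13.06 ± 0.12 and 11.90 ± 0.15 (log2, SD over 3 arrays each). With each array centred on its median 10 members were higher and 3 lower, with the authors' deposited values 12 and 7, and without control array 1 the count of calls was 15, all higher. The shares of all gene probes called under these alternatives are not given here, so the counts are not read as particular to the members. These are positions relative to the rest of each array: the mean net intensity was higher in explant for only 4 of the 21 probes and lower for 17. Ranked among all readable gene probes of its own array, each of the 21 stood at a higher percentile on every explant array than on any control array. Quantile normalization works on ranks within an array, so this restates the calls and is no separate support for them. The median proteasome probe ranked at percentile 86.1 to 87.6 on the explant arrays and 69.2 to 75.6 on the control arrays. In these bulk samples, fewer cells of a type and less RNA per cell cannot be told apart.

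All 8 beta-ring probes were higher in explant, by 1.29 to 2.01 on the log2 scale. All 8 kept a positive difference with each array centred on its median and in the authors' deposited values, but only 3 and 4 of them, in that order, then passed the test. Psmb5, the chymotrypsin-like catalytic subunit, had net intensities of 4623, 3508.5 and 4825.5 in explant and 7425.5, 9343 and 5189.5 in control. The explant spots were dimmer but ranked at percentile 82.8 to 88.3 of their arrays, against 61.7 to 76.7 in control. The normalized difference was 1.33 ± 0.31 (log2, SE; adjusted p = 0.0122), and without control array 1 the call was lost. Psmb6, the caspase-like subunit, gave 7275, 4601 and 4465.5 in explant and 9530, 6184 and 11346 in control. Its difference was 1.37 ± 0.31 (adjusted p = 0.0101). Psmb7, the trypsin-like subunit, gave 15851, 12175 and 10990.5 in explant and 26146.5, 19983.5 and 14457 in control, and its normalized difference was 1.51 ± 0.26 (adjusted p = 0.0034). Psmb5 and Psmb6 lost the call with median centring, and Psmb6 and Psmb7 with the deposited values. The 3 catalytic genes had non-overlapping normalized values between explant and control, as did 57.6% of all tested probes. Both probes of Psmb1, a non-catalytic beta subunit, were higher, by 2.01 ± 0.26 for probe A and 1.95 ± 0.31 for probe B.

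None of the 3 tested inducible or thymic beta probes was called. Psmb8 had net intensities of 5163, 2903 and 5466.5 in explant (array 2 not above background) and 27115.5, 13636.5 and 15617.5 in control; its log2 difference was -0.11 ± 0.32 (adjusted p = 0.808). Psmb9 gave 3376.5, 1806.5 and 3749.5 in explant (array 2 again not above background) and 8909, 9728 and 8593 in control, with a difference of 0.37 ± 0.28. Psmb10 gave 12783, 10065.5 and 9856 in explant and 58244, 51710.5 and a saturated spot in control, with a difference of -0.62 ± 0.26 (adjusted p = 0.0933). Whether the inducible genes differ from the constitutive ones in their change was not tested. Among 7 tested microglia probes, 3 were lower and 0 higher in explant, with a summed level over 9 probes of 15513 to 20702 against 91862.5 to 101524 in control; their part in the Psmb8 to Psmb10 values was not tested. Psmb11, the thymus-specific beta subunit, was above background on no explant and no control array.

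**Figure D2:**
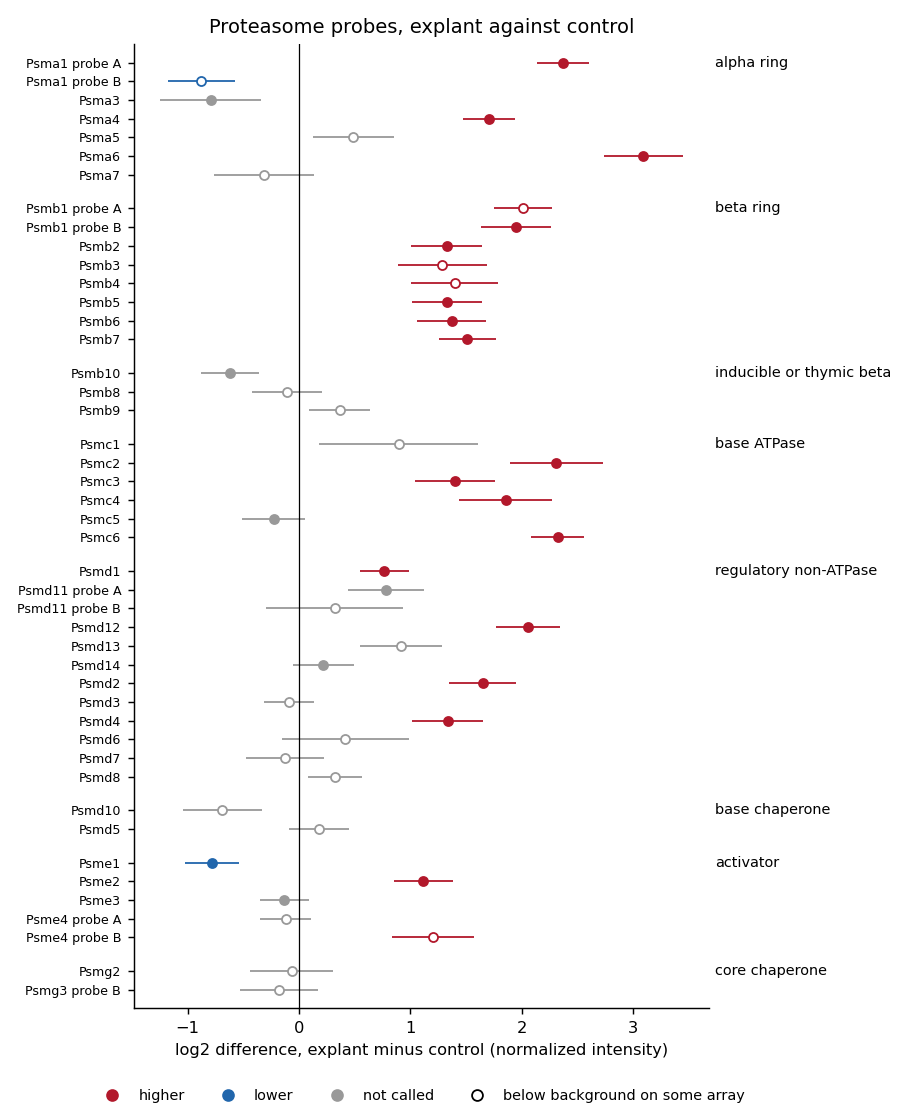
Log2 difference in normalized intensity, explant minus control, for the 45 tested proteasome probes with limma standard errors (n = 3 arrays each), grouped by role. All 8 beta-ring probes are called higher, from 1.29 to 2.01, while the 3 inducible probes are not called; open points have at least 1 array not above background.

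The alpha ring was mixed, with 3 probes higher and 1 lower of 7. Psma6 had the largest rise of all members: 15913, 9214 and 11975.5 in explant and 13158, 5819 and 4503.5 in control. Its mean was above control even before normalization, and the normalized difference was 3.09 ± 0.35 (adjusted p = 6.21e-04). Psma4 rose by 1.71 ± 0.24. Psma1 depended on the probe. Probe A gave 10338, 6142 and 5920.5 in explant and 7447, 5762 and 6098.5 in control, a difference of 2.37 ± 0.23 (adjusted p = 3.14e-04). Probe B was above background on no explant array (829.5, 406 and 571) and on all control arrays (8016, 5122.5 and 6015.5), and was called lower. Probe B is tied to its gene only by the symbol, since its sequence record is not in the annotation used. Its adjusted p of 0.0484 was above 0.05 in 8 of 14 alternatives, among them each of the 3 fits without a control array.

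ATPase probes were higher for 4 of 6 and lower for none. Psmc6 gave 5532.5, 3134.5 and 3363 in explant and 3282.5, 2326 and 3141 in control, and rose by 2.32 ± 0.24 (adjusted p = 3.80e-04). Psmc2 gave 6617.5, 3900.5 and 5724.5 in explant against 7953.5, 5842 and 1821 in control, and rose by 2.31 ± 0.41 (adjusted p = 0.0042). Psmc3 and Psmc4 were higher by 1.40 ± 0.36 and 1.86 ± 0.42, while Psmc1 and Psmc5 were not called. Among non-ATPase subunits 4 of 12 probes were higher. Psmd12, a lid subunit, gave 9720.5, 4670.5 and 4428 in explant and 7956.5, 5152.5 and 5910 in control, and rose by 2.06 ± 0.29 (adjusted p = 0.0015). Psmd4, the ubiquitin receptor Rpn10, gave 8346, 7194 and 5446 in explant and 16027.5, 12747.5 and 7739.5 in control, with a normalized rise of 1.34 ± 0.32 that was not called with median centring or the deposited values. Psmd1 and Psmd2, the large scaffold subunits of the base, were higher by 0.77 ± 0.22 and 1.65 ± 0.30. Psmd14, the lid deubiquitinase Rpn11, gave 13168.5, 6031 and 7507.5 in explant and 27983, 28142.5 and 27477 in control, and its normalized difference of 0.22 ± 0.27 was not called.

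Activators went both ways. Psme1 and Psme2 encode the partner subunits of the PA28 cap. Psme1 gave 17203, 12363 and 19222 in explant and was saturated on all 3 control arrays, so it was at least 1.72-fold lower in explant (adjusted p = 0.0364). That call was lost in 9 of 15 alternatives, among them each fit without a control array. Psme2 gave 6746.5, 5013.5 and 7328.5 in explant and 13669.5, 12939.5 and 10888 in control, with a normalized difference of 1.12 ± 0.27 (adjusted p = 0.0131), and it was not called without control array 1, with median centring or with the deposited values. Psme3, the nuclear PA28 gamma subunit, gave 7082.5, 5108 and 6056.5 in explant and 27653, 24494.5 and 21794 in control, a normalized difference of -0.13 ± 0.22. Psme4 encodes the PA200 cap: probe B gave 3643, 1499.5 and 4826 in explant against 6201, 6603 and 4260.5 in control and was called higher by 1.20 ± 0.37. Without any one of the 3 control arrays, without explant array 1, with median centring or with the deposited values, its call was lost. Probe A was above background on no explant array and on all control arrays. Psmf1 was above background on no explant array and on control arrays 1 and 2, and was not tested.

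Beyond the members, 25 probes for related genes were tested, among them ubiquitin receptors, deubiquitinases and assembly factors. In explant 12 were higher and 0 lower, with a median of 0.91. Vcp, the segregase that extracts ubiquitinated proteins, rose by 3.01 ± 0.43, Sem1, a small lid subunit, by 2.15 ± 0.27, and Ubqln2, a shuttle factor, by 1.78 ± 0.37.

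RefSeq promoter windows of at most 300 bases, ending just after the gene start (GRCm38.p6), were found for 39 of the 47 genes, 42 windows in all. Each of 4 motifs was searched on both strands: TGACNNNGC, the core of the antioxidant response element to which the proteasome regulators of the Nfe2l family bind, CCGGAAG, an ETS-type element, the CCAAT box (CCAAT) and the TATA box (TATAAA). The first was in 6 of 42 windows (14.3%), against 12.4% of all 32851 windows. The second was in 15 of 42 (35.7%), against 8.86% of all windows and 11.6% of those of protein-coding genes. CCAAT was in 33.3% of the member windows and 37.4% of all, and TATAAA in 9.52% and 13.6%. The windows below belong to Psma6, Psmc6, Psmd12 and Psmb5, chosen by hand from the members that rose in explant. Each gene shown holds a marked motif, but other members that rose are not shown, among them Psma1, which has neither. Whether a motif goes with a rise was not tested. Capitals mark the first or the second motif. Psma6 has a pair of windows. The one shown lies within the gene, downstream of the gene start at 55384222, and holds CCGGAAG at bases 119, 249 and 268. The other, from 55383972 to 55384271, ends just after the gene start and holds neither motif. Psmc6 has the first motif at base 24 and the second at base 151, Psmd12 has them at bases 4 and 234, and Psmb5 has the first alone at base 204. A match describes the letters and shows no binding.
Psma6 (chr12:55398575-55398874, + strand): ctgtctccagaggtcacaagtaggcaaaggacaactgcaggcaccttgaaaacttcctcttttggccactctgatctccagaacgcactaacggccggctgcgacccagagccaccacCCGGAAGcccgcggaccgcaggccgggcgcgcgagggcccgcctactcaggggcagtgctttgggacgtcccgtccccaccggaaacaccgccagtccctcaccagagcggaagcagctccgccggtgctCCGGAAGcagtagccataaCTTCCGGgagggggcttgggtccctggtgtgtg
Psmc6 (chr14:45329574-45329873, + strand): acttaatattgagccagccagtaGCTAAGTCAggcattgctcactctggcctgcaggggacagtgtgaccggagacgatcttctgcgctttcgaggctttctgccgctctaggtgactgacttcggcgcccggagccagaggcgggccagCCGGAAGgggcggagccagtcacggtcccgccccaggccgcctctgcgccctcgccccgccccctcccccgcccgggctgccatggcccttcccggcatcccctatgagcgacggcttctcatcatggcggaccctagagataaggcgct
Psmd12 (chr11:107479278-107479577, + strand): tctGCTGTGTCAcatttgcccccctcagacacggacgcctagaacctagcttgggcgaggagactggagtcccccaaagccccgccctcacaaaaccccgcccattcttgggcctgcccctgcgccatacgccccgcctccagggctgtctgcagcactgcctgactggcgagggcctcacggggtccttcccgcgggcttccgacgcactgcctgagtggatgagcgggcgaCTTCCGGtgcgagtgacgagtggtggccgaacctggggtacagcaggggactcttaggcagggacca
Psmb5 (chr14:54617946-54618245, - strand): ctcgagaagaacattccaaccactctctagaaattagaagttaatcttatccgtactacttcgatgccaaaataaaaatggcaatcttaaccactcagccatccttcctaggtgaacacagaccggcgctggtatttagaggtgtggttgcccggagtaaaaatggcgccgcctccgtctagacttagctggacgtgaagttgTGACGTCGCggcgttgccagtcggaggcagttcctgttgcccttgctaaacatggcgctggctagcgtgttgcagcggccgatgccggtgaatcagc

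The second comparison asked what the rotary mixer and 40 cycles of amplification left of the adult forebrain profile. Of 46 tested proteasome probes, 7 were higher and 23 lower in microfluidic than in control. The background was 59.1% of 15459 gene probes called, 23.9% higher and 35.1% lower, and the medians were -1.13 for the members and -0.43 for all. Of the 23 lower probes, 12 were above background on no microfluidic array. Restricted to the 12 member probes above background on every array of both groups, 6 were higher and 1 lower, with a median of 1.04 (0.43 over all probes so restricted). The share of all gene probes called under this restriction is not given here, so the count is not read as particular to the members. The core particle held 10 lower and 0 higher of 15, and the regulatory particle 7 lower and 4 higher of 18. Of the core probes, only Psma1 probe A, Psmb1 probe B and Psmb2 were above background on all 3 microfluidic arrays. The other tested core probes entered the test through the control group alone, which favours the direction lower. The core count is therefore no separate support for a fall. Over the arrays, the median core level was 10.29 ± 0.39 in microfluidic against 11.23 ± 0.08 in control (log2, SD, n = 3 each), and the regulatory level 11.06 ± 0.60 against 11.90 ± 0.15. With median centring Psmb1 probe B was also called higher, so that the core count became 1 higher and 10 lower.

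All 3 catalytic genes were lower in microfluidic. Psmb7 gave 778, 354 and 829 in microfluidic, none above background, against 26146.5, 19983.5 and 14457 in control, at least 6.80-fold lower (adjusted p = 1.14e-04). Psmb5 gave 872, -14 and 399 in microfluidic, again none above background, and was at least 2.17-fold lower. Psmb6 was above background on microfluidic array 3 alone (511, 450.5 and 2148.5) and was lower by a log2 difference of -1.70 ± 0.45 (adjusted p = 0.0132); without control array 3 the adjusted p was 0.0518. Psma4 was at least 4.02-fold lower, with 1085.5 and 21 on the readable microfluidic arrays and 13224, 11852 and 9209 in control. The catalytic genes lay near or under the detection limit in microfluidic.

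Among inducible genes, Psmb9 gave 885, 1039 and 998.5 in microfluidic, none above background, and 8909, 9728 and 8593 in control, at least 2.77-fold lower. Psmb10 stayed bright, at 35915 and 30925.5 on microfluidic arrays 1 and 3 (array 2 marked bad) against 58244, 51710.5 and saturation in control; its difference of -1.13 ± 0.34 (adjusted p = 0.0268) lost its call without any one control array, without microfluidic array 1 and without microfluidic array 3, with the replicate block and with the deposited values, and was positive with median centring (0.34, not called). Psmb8 was readable only on microfluidic array 1, at 19849, within the control range of 13636.5 to 27115.5. No inducible gene was called higher.

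The regulatory particle split by gene. Psmc3 was saturated on all 3 microfluidic arrays against 19534, 17973.5 and 14325 in control, at least 5.11-fold higher (adjusted p = 4.62e-04). Psmc6 gave 5176.5, 7329 and 8693 in microfluidic and 3282.5, 2326 and 3141 in control, a rise of 2.06 ± 0.31 (adjusted p = 0.0011). Psmd12 gave 13521.5, 10577 (not above background) and 10298 in microfluidic, above the 7956.5, 5152.5 and 5910 of control, a rise of 1.64 ± 0.28. Psmd14 was saturated on microfluidic arrays 1 and 3 and read 55077 on array 2, and rose by 1.62 ± 0.31 with the saturated spots at their values, which can understate the rise. In the opposite direction, Psmd11, a lid subunit, was lower with both probes: probe A by -3.06 ± 0.39 on the log2 scale, and probe B at least 2.94-fold, its only readable microfluidic spot being at 27. Psmc5 was lower by -3.05 ± 0.33, with 1814, 361 and 1362.5 in microfluidic against 27328, 24466 and 18406.5 in control. Psmd4 gave 5626.5, 4343 and 1189.5 in microfluidic, and its difference of -0.73 ± 0.56 was not called.

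Psmg2, a chaperone of core assembly, rose as well: 55089, 54895.5 and a saturated spot in microfluidic against 11689, 6455 and 10056 in control, a log2 difference of 3.16 ± 0.40 with the saturated spot at its value (adjusted p = 4.87e-04). Saturation leaves the order of the rises of Psmg2, Psmc3 and Psmd14 unknown. Psme4 rose with both probes. Probe A gave 10192.5, 12370.5 and 12148.5 in microfluidic and 3695, 2408 and 2528 in control (2.63 ± 0.30), and probe B 9375, 7181 and 7273 against 6201, 6603 and 4260.5 (1.39 ± 0.30). Psme3 fell by 3.06 on the log2 scale (SE 0.31), with 914, 1208.5 and 1347.5 in microfluidic. Psme2 was above background on microfluidic array 1 alone (1746.5, 151 and 567) and fell by 2.52 (SE 0.42). Psme1 was saturated on microfluidic arrays 1 and 3 as on all control arrays and was not called; with median centring it was called higher. Psmf1 gave 1281.5, 3615 and 3253 in microfluidic and 3556, 3758 and 1708 in control, a difference of 0.95 ± 0.46 that was not called. Among the related genes 14 of 26 probes were lower and 5 higher; Rad23b, a shuttle receptor, was at least 5.76-fold lower, and Usp14, a deubiquitinase of the base, was saturated on all microfluidic arrays and at least 4.93-fold higher. Probes of Ube3a, a ubiquitin ligase, parted: one rose by 3.15 ± 0.30 and another was at least 4.82-fold lower.

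**Figure D3:**
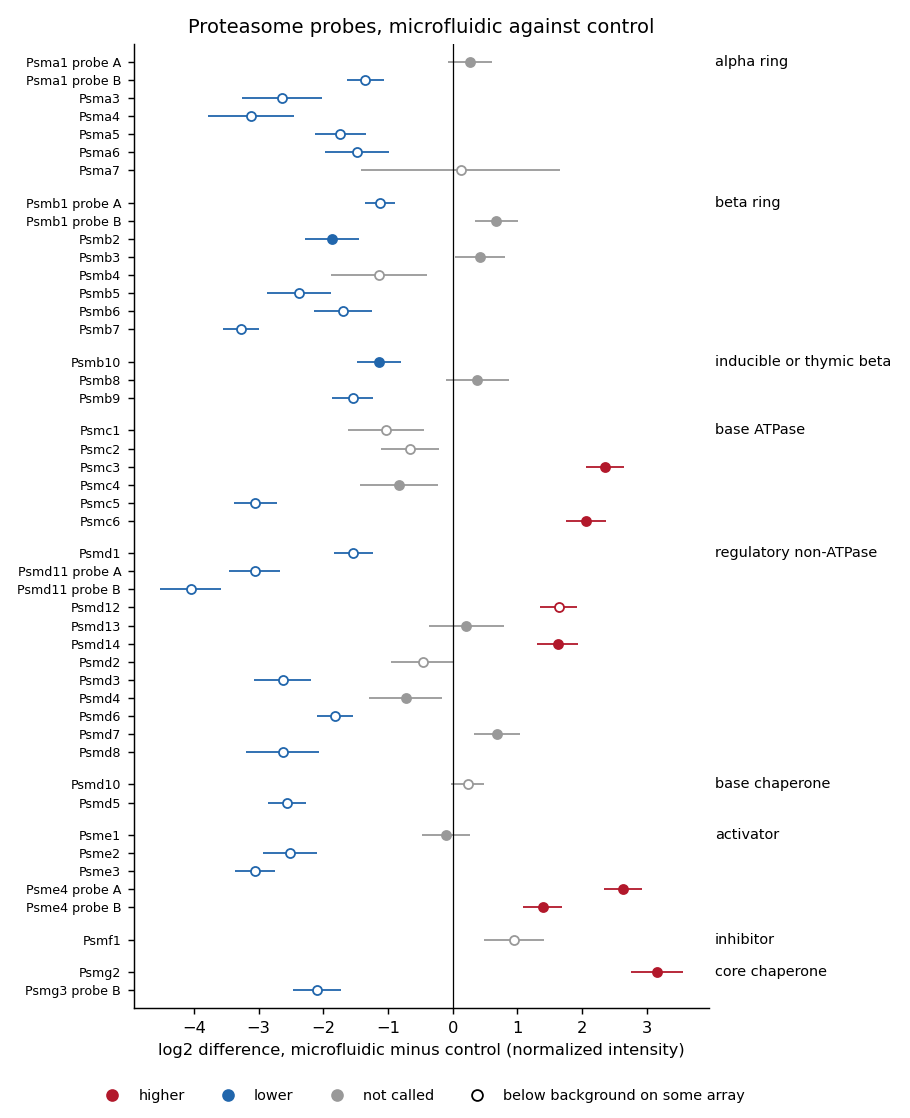
Log2 difference in normalized intensity, microfluidic minus control, for the 46 tested proteasome probes with limma standard errors (n = 3 arrays each), grouped by role. No core-particle probe is called higher and 10 are called lower, while Psmc3, Psmc6, Psmd12, Psmd14, both Psme4 probes and Psmg2 are called higher. Core probes other than Psma1 probe A, Psmb1 probe B and Psmb2 entered the test through control alone, which favours the direction lower. Open points have at least 1 array not above background.

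In the tube reaction almost no member could be read. Across the conventional arrays only Psmb2, Psmb5, Psmc1, Psmd14 and Psme1 were above background anywhere, and none on all 3 arrays. Against control, 17 of 44 tested probes were lower and 1 higher, where 30.2% of 13791 gene probes were called, 6.38% higher and 23.8% lower. All 44 entered the test through the control group alone, which favours the direction lower. All 17 lower probes were above background on no conventional array, and only for Psmb10 did the detection limit leave a fold, at least 1.60-fold lower (629, 195 and 485 in conventional). The normalized values of 24 of the 44 did not overlap between groups, against 49.8% of all tested probes. Psma7, for example, gave -124.5, 52.5 and 65 in conventional and 19707.5, 22036 and 20088.5 in control. The higher probe was Psmc1, at 4278.5, 8224 and 2274 (array 3 not above background) in conventional and 12229, 2382.5 and 11921 in control. Its normalized difference was 3.11 ± 0.74 (adjusted p = 0.0168), its mean net intensity was lower in conventional, and without control array 2 the adjusted p was 0.0716. With the authors' deposited values the count was 5 higher and 20 lower. Without control arrays 1, 2 and 3 the count of calls was 9, 8 and 10. For these alternatives too the share over all gene probes is not given, and the counts are not read as particular to the members. Psme2, at -5, 312 and -139 in conventional, was called lower with no fold (adjusted p = 0.0327) and lost its call without any one control array, without conventional array 1 and without conventional array 3. Among the related genes 7 of 26 probes were lower and 3 higher, with a median of -0.83. The largest falls were those of a probe of Ube3a, Vcp and Ubqln2. None of these was above background on any conventional array, which leaves no fold. The 3 higher were Pomp, Nfe2l1 and a probe of Ubqln1. Pomp, the core maturation factor, gave 14799.5, 45979 and 12137 in conventional and 10845.5, 20232 and 8156 in control. It was called higher by 3.39 ± 0.56. Nfe2l1, the transcription factor that raises proteasome genes when the proteasome is inhibited, was at least 44.8-fold higher, with a saturated spot, 8140.5 and 3148 in conventional and no control array above background.

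Set directly against each other at equal input, the mixer and the tube differed in 7 of 14 tested member probes, all higher in microfluidic, where 27.5% of 6941 gene probes were called, 23.0% higher and 4.50% lower. No member was above background on all 3 conventional arrays. All 14 therefore entered the test through the microfluidic group, which favours the direction higher and a positive median. The median was 2.07 for the members and 1.05 for all. The 7 were Psmg2, Psme4 probe A, Psmb1 probe B, Psmc3, Psmd14, Psmd4 and Psmd7, and all but Psmd14 were above background on no conventional array. Psmg2 gave 958, 189 and 379 in conventional and was at least 1.61-fold higher in microfluidic (adjusted p = 0.0083). Psme4 probe A was called higher too (adjusted p = 0.0048), but at -22, 69 and 79 in conventional it lay under the detection limit there, which leaves no fold. Psmc3 was at least 1.90-fold higher, with 1455, 154 and 2638.5 in conventional; its call and those of Psmd14 and Psmb1 probe B were lost without any one microfluidic array, and that of Psmb1 probe B also with the deposited values. Psmc3, Psmd14 and Psmd4 lost their calls without conventional array 1, with no filter on dim probes and with the blank-spot limit as the filter. Psmd4 also lost it with the replicate block and without microfluidic array 1 or 2. The number of calls was 3, 4 and 3 without microfluidic arrays 1, 2 and 3, and 4 without conventional array 1, and Psmd4 turned to -0.25 in the authors' deposited values. These numbers of calls are given without the share over all gene probes and are not read as particular to the members.

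**Figure D4:**
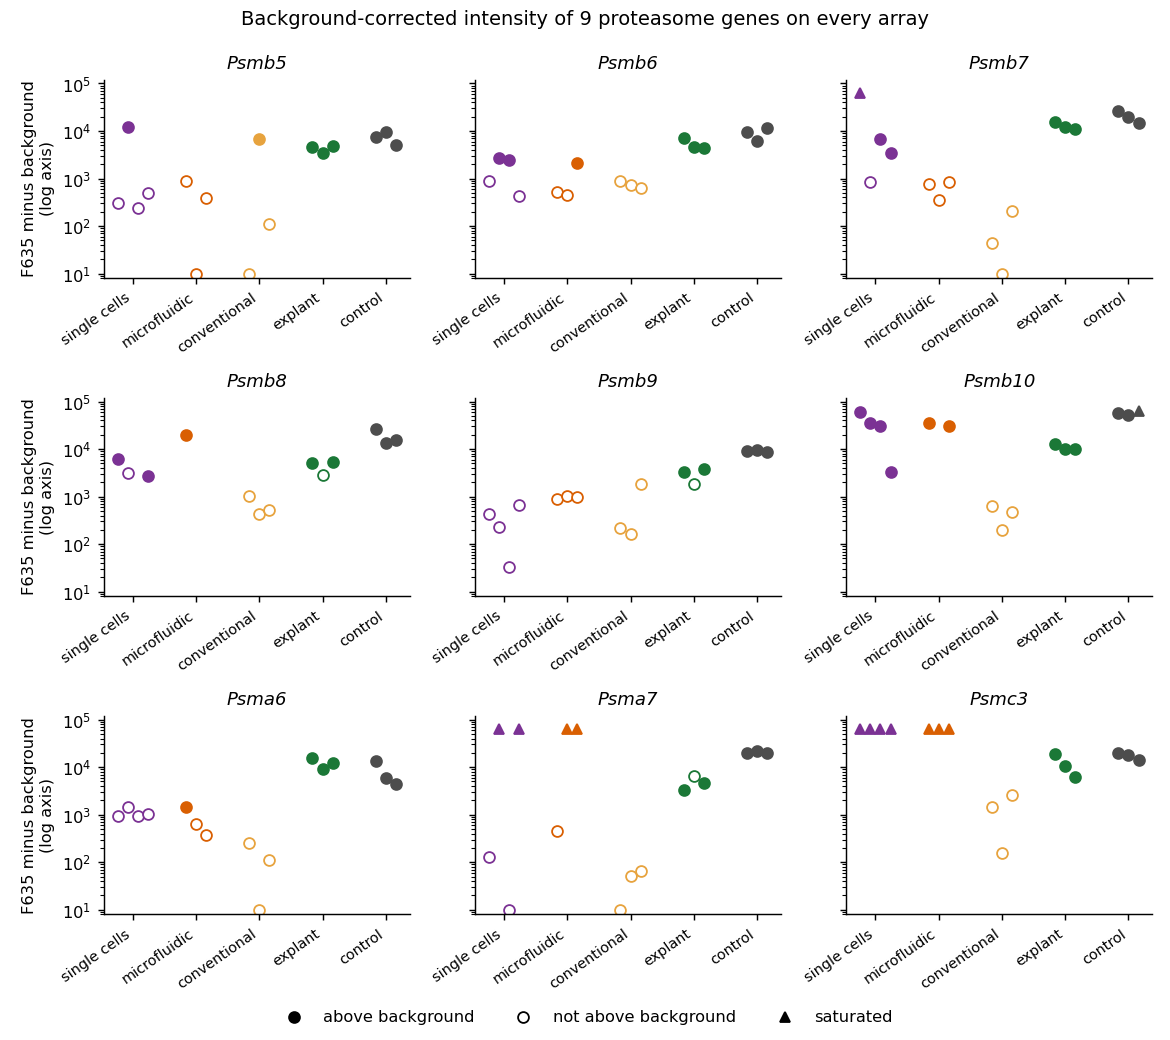
Net intensity (red-channel foreground minus background, log axis) of 9 proteasome genes on all 16 arrays: circles are filled above background and open otherwise, triangles are saturated, and values under 10 are drawn at 10. Psma7 shows both extremes within the single cells and within the microfluidic arrays, Psmc3 is saturated on all 7 of those arrays, and Psmb5 is above background in 1 of 4 cells.

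The 4 cells were read one by one, since no label ties them to animals. Of the 52 member probes, 15 (28.8%) were above background in all 4 cells, where the share over all gene probes was 17.1%, and 17 (32.7%) were above background in none, where the share over all was 41.0%. The 15 were found in every role except the base chaperones; among them were Psma8, Psmb1 probe B, Psmb3, Psmb10, Psmc3, Psmc4, Psmc6, Psmd12, Psme1, Psme3, both Psme4 probes, Psmf1, Psmg2 and Psmg3 probe A. Psma8, the alpha subunit of testis, gave 6988, 5446.5, 7164.5 and 3908 in the cells and was above background on no explant array. On the microfluidic arrays of adult forebrain RNA it read 6156 to 12570, above background on 2 of 3, against 1196 to 3119 in control. The part of amplification in the Psma8 signal was not tested. Psmc3 was saturated in all 4 cells, as it was on the 3 microfluidic arrays, against 18798, 10361 and 6231.5 in explant. Psmd12 gave 30343, 27111.5, 23937 and 13430.5 in the cells, in net intensity above the explant range of 4428 to 9720.5 in every cell, and above the microfluidic range of 10298 to 13521.5 in cells 1 to 3 but not in cell 4. Psme4 probe A gave 19611, 16951, 16992 and 12482.5, and probe B 15516.5, 13299.5, 14702 and 11659.

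Catalytic genes appeared in some cells and not in others. Psmb5 read 11972 in cell 2 and was not above background in cells 1, 3 and 4, at 307, 241 and 488.5. Psmb6 was above background in cells 2 and 3, at 2733.5 and 2491.5, and not in cells 1 and 4. Psmb7 was saturated in cell 1, read 6817.5 in cell 3 and 3441 in cell 4, and was not above background in cell 2, at 861. No cell had all 3 catalytic genes above background. The sharpest contrast was Psma7, saturated in cells 2 and 4 and at 127 and -184 in cells 1 and 3. That pattern was also present where the input was the same RNA: microfluidic arrays 2 and 3 were saturated and array 1 read 446. Psme2 was saturated in cell 1, read 17611 in cell 3 and 279.5, not above background, in cell 2. Psmd7 was saturated in cell 1 and not above background in cell 4, and Psmc5 read 26356 in cell 2 and lay under the limit in the other cells.

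Inducible genes were uneven as well. Psmb10 gave 59759.5, 35555, 30350 and 3311 and was above background in every cell. Psmb8 was above background in cells 1 and 4, at 6277 and 2685, not in cell 2, and was marked bad in cell 3. Psmb9 was above background in none. Psmd4 was above background in cell 2 alone, at 1485, and Psmd14 in cells 1 to 3, at 64268, 49787 and 13506.5, with 793.5 in cell 4. Of the 9 microglia probes, 1 to 3 were above background in a cell, with a summed level of 8637 to 23223; their part was not tested.

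Against the explant, every cell stood lower over the members: the median log2 difference was -1.58, -1.45, -1.67 and -1.43 in cells 1 to 4, beside medians of -0.00 to 0.04 over all gene probes. For 24 of the 52 probes all readable cells lay below all readable explant arrays (46.2%, against 24.9% of all gene probes), and for 6 above (11.5%, against 24.2%). The probes below included Psma4, Psma6, Psmb5, Psmb6, Psmc2, Psmd4 and both Psmd11 probes; the 6 above were Psma8, Psmb11, Psmc3, Psme4 probe A, Psmg2 and Psmg3 probe A. Of these, Psmb11 was above background in no cell and on no explant array, and Psmg3 probe A was readable on 1 explant array alone, where it was not above background. Against the microfluidic arrays the same medians were -0.07, -0.21, 0.11 and 0.56, and 2 probes lay above (3.85%, against 7.25% of all gene probes) and 4 below (7.69%, against 8.48%). Over the members, the normalized values of a cell had a Pearson correlation of 0.70 to 0.81 with the microfluidic mean, 0.15 to 0.37 with the explant mean and 0.23 to 0.43 with the control mean, across 49 to 52 probes. Over all gene probes these were 0.69 to 0.80, 0.25 to 0.29 and 0.32 to 0.35. The probes are not independent replicates, and the cells share amplification with the microfluidic arrays, while they share strain and age with the explant. Cells and explant share the tissue by the sample labels, but the extraction notes call the explant telencephalon. Within the amplified groups the members varied more: the median SD between arrays was 0.70 on the log2 scale over the cells, 0.55 over the microfluidic arrays and 1.60 over the conventional arrays (from 5 members), against 0.34 in explant and 0.35 in control, for probes above background on at least 1 array of the group. Over all such gene probes it was 0.74, 0.51, 1.32, 0.37 and 0.28 in the same order.

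**Figure D5:**
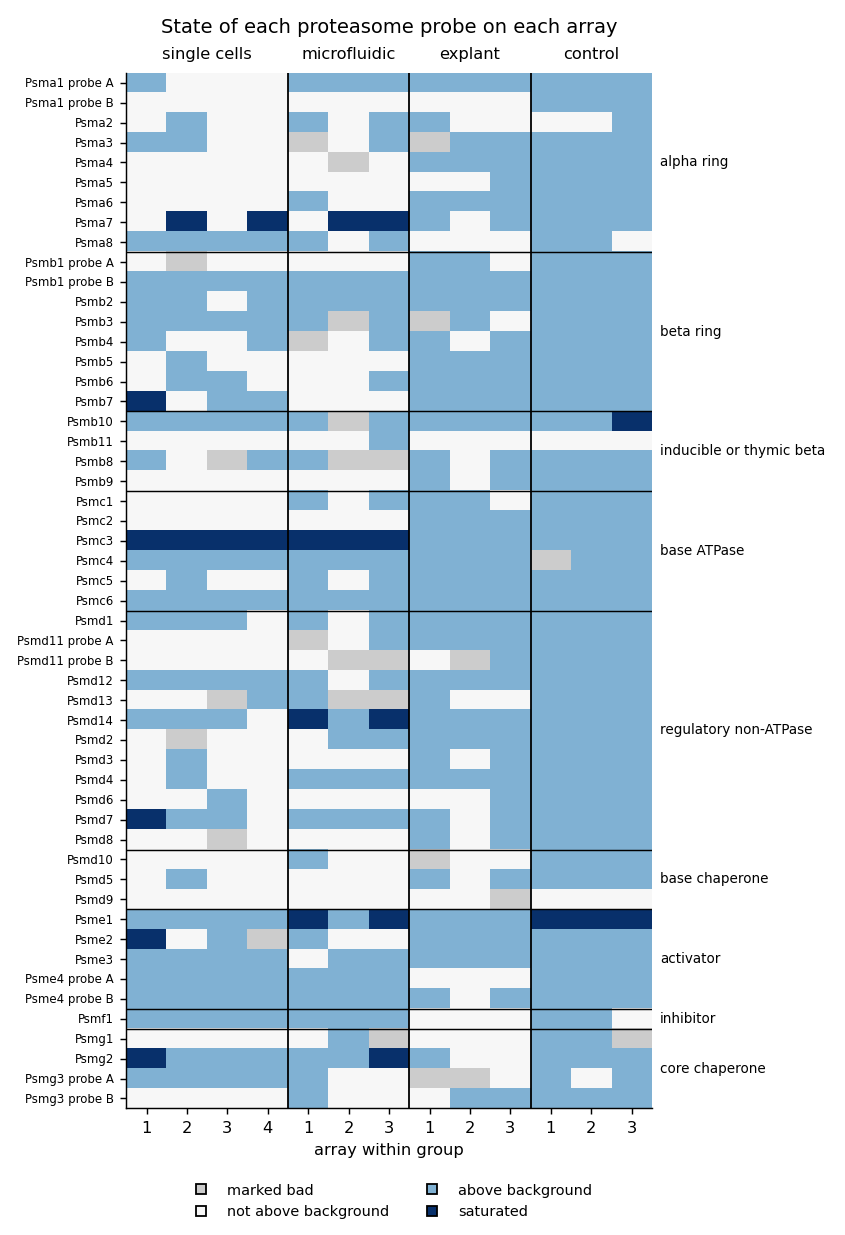
State of each of the 52 proteasome probes (rows, by role) on the arrays of the single cells, the microfluidic, the explant and the control groups (columns): grey is marked bad, white not above background, light blue above background and dark blue saturated. Control columns are nearly all above background, with Psmb11 and Psmd9 the only rows above background on no control array, while cells and microfluidic columns share rows that are on throughout, such as Psmc3, Psmc6 and both Psme4 probes.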

How the data were processed

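Each array gave the Cy5 median, background median and a spot flag, and all but conventional array 1 gave a background SD. These intensity values were deposited by the authors as scanner output. The file headers name Mapix versions 2.2.4, 2.3.0, 2.4.4 and 2.5.1 for the other groups, and no version was read for the conventional arrays. The signal values of the authors' deposited series table have no stated processing here. No aligner or count step applies.

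Spots that the scanner software marked bad were not used, saturated ones excepted. The background was removed with normexp (offset 50), the 16 arrays were quantile-normalized together, and values were taken as log2. limma 3.58.1 in R 4.3.3 fitted each pair of groups over all gene probes above background (foreground over background by 2 SD) on all arrays of at least 1 group, with Benjamini-Hochberg adjustment at 0.05; the procedure was tested on simulated data. The background SD of conventional array 1 was imputed. Every probe counts once. Differences are on the log2 scale with the limma standard error, and the number of arrays limits the precision. Members, related-gene and marker lists were chosen with earlier results of these data known. The rule for naming genes covered catalytic, inducible, activator, inhibitor and ubiquitin-handling members. It added the 5 largest rises and falls per comparison and the 3 largest among related genes. The text does not follow this rule in full. Some genes it covers are left out, and some members outside it, such as Psma8 in the cells, were chosen by hand. Of the 32 related genes, 24 were matched to 29 probes. Replicate numbers did not pair arrays. Alternatives covered background correction, normalization, deposited values, filters, variance trend, replicate block and each array left out. Probe sequences were not used here.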

Additional observations from a re-analysis of the deposited data

Results flagged for a closer look

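Psmb11, the thymus-specific beta subunit, read 9.68 on the normalized log2 scale in single cell 4, above a mean of 9.08 over the other 3 cells. The gap to the nearest other cell was 0.9181 of the range over the 4 cells, past the critical value that Dixon's test sets for 4 samples. The probe was above background in none of the cells. Of 46 members readable in all 4 cells it was the 1 that stood out in this way, and chance alone picks about 1 in 20 such groups.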

How the results depend on the processing

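With the test limited to probes above background on all arrays of both groups, 7 members were called in microfluidic against control; for both comparisons with the conventional group no member was left to test. In explant against control, 13 were called with median centring, where the median over all tested probes was -0.44 in place of -0.30. Leaving out each array gave 28 to 30 calls for microfluidic against control, 8 to 19 for conventional against control, 3 to 8 for microfluidic against conventional and 15 to 22 for explant against control. The counts in this section are given without the share over all gene probes under the same setting. They show how the member counts move and are not read as particular to the members. A replicate block gave 29, 16, 5 and 16 calls in that order; arrays of the same number deviated with correlations of -0.18 to 0.09, and 9 of 24 arrays correlated best with their own number, so the numbers pair no arrays. Signs turned with median centring for Psmb10 (0.34) and Psme1 (1.26) in microfluidic against control, and with the deposited values for Psme4 probe A in conventional against control (0.87) and Psmd4 in microfluidic against conventional (-0.25). Of 930 refits of named results, 844 kept sign and call, 70 lost the call, 12 gained it and 4 turned sign.

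A lower detection limit, background plus 1 SD, put the mean share of members above background at 65.3% in cells, 71.0% in microfluidic, 9.73% in conventional, 81.9% in explant and 97.4% in control arrays. The 95th percentile of blank spots as the limit gave 87.6%, 92.9%, 33.1%, 91.3% and 99.4% in the same order; as the filter in the 4 fits, chosen after seeing the data, it left every count within 1.5 times. The median of the cells minus explant was -1.15 without background correction, -1.02 with median centring and -1.38 with deposited values. The core level minus control was -1.42 in microfluidic and -0.0548 in conventional with deposited values, and -0.88 in conventional without background correction; in explant it was 1.40 without background correction, 1.16 with median centring and 0.94 with deposited values. The regulatory level minus control was -1.47 in microfluidic and -0.614 in conventional with deposited values, and -1.13 in conventional without background correction; in explant it was 0.93, 0.54 and 0.40 under the same 3 settings as the core. The cause was not tested. Few members rose above background in the tube reaction, which limits what can be read there.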
